A study of Homo sapiens with 4 samples.

Results

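The alcohol dehydrogenases, aldehyde dehydrogenases and aldo-keto reductases are 3 enzyme families that interconvert alcohols, aldehydes and carbonyl compounds. Alcohol dehydrogenases oxidize ethanol, retinol and other alcohols to aldehydes with NAD. Aldehyde dehydrogenases oxidize the aldehydes to acids, which clears reactive products of ethanol, lipid peroxidation and amino acid breakdown and also makes retinoic acid. Aldo-keto reductases mostly run the other way, reducing aldehydes and ketones with NADPH, and their substrates include steroids, prostaglandins, bile acid precursors, sugars and anthracycline drugs. The liver holds much of the body's activity of all these enzymes.

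The members were the protein-coding genes whose symbol begins with ALDH or AKR followed by a digit, together with ADH1A, ADH1B, ADH1C, ADH4, ADH5, ADH6 and ADH7. They were 39 genes (7 ADH, 19 ALDH and 13 AKR) among the 19951 protein-coding genes of GENCODE release 29. The data came from HepG2 and Huh7, which are established human liver cancer cell lines, with 1 library in each of 4 groups. Group A was HepG2 cells and group C was Huh7 cells, whose labels name no treatment. Groups B and D were the same lines treated with sonodynamic therapy (SDT), in which ultrasound activates a sensitizer. The labels describe targeted nanobubbles with lonidamine (LND), an inhibitor of tumor energy metabolism, and the study's methods add the sensitizer hematoporphyrin monomethyl ether (HMME). Nanobubbles, drug, sensitizer and ultrasound are joined in 1 treated group per cell line, and their parts cannot be told apart.

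A member was counted as called when its identifier stood under any gene ontology (GO) term in the deposited enrichment table of B vs. A (HepG2) or of D vs. C (Huh7), because these tables hold the mRNAs that the authors had called as differentially expressed. The tables give no expression level and no direction of change, so none of the genes below can be said to have risen or fallen. A gene outside the list may have missed the threshold, been too low to test or lacked an annotation, which the tables do not separate. Without replicates no count here has an error between samples and no difference between the cell lines was tested. Of 6 hepatocyte markers (ALB, AFP, APOA1, TTR, TF and SERPINA1), 2 were called in HepG2 cells (ALB and AFP) and 4 in Huh7 cells (the same pair with APOA1 and TTR). Since levels are not given, the liver character of the cells could not be checked against them.

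In HepG2 cells 14 of the 39 members were called (35.9%), beside 21.6% of the 22148 genes in the GO background. In Huh7 cells 14 were also called (35.9%), beside 19.7% of the background. The members called in both lines were 8 (20.5%), beside 10.3% of the background. These 8 were 57.1% of the called members of each line, whereas the genes shared over the whole lists were 47.7% of the HepG2 list and 52.2% of the Huh7 list. Another 6 members were called in HepG2 cells and not in Huh7 cells, 6 were called in Huh7 cells and not in HepG2 cells, and 19 were in neither list. Of all 19951 protein-coding genes, 2492 were called in HepG2 cells and not in Huh7 cells. The reverse held for 2084, and 13099 were in neither list.

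**Figure D1:**
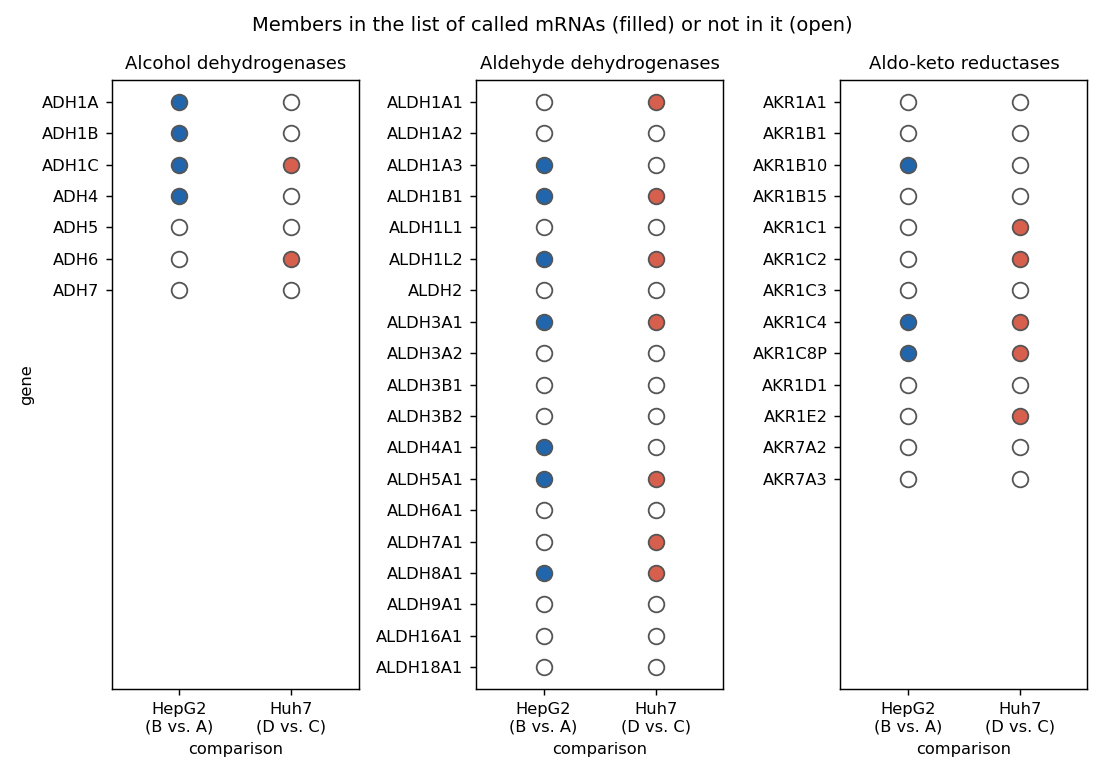
Each row is a gene of the named family and each column a comparison (HepG2, B vs. A; Huh7, D vs. C). Filled circles mark genes in the list of called mRNAs and open circles genes outside it, 14 of 39 being filled in each comparison and 8 in both.

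By family, the lists held unequal numbers of ADH and AKR genes and equal numbers of ALDH genes. Of the 7 ADH genes, 4 were called in HepG2 cells (57.1%) and 2 in Huh7 cells (28.6%), with 1 in both. Of the 19 ALDH genes, 7 were called in each line (36.8%), with 5 in both. Of the 13 AKR genes, 3 were called in HepG2 cells (23.1%) and 5 in Huh7 cells (38.5%), with 2 in both. The HepG2 share of the AKR family was close to the share of the background, and with families of this size 1 gene moves a share by several percentage points. When the 6 members with a near-identical paralog (coding identity of at least 90%) were left out, each line had 1 ADH, 7 ALDH and 3 AKR genes called. The members left out include ADH1A, ADH1B, AKR1C1 and AKR1C2, each called in 1 line, so the equal numbers follow from their removal. The ADH gene that remained called was ADH4 in HepG2 cells and ADH6 in Huh7 cells.

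**Figure D2:**
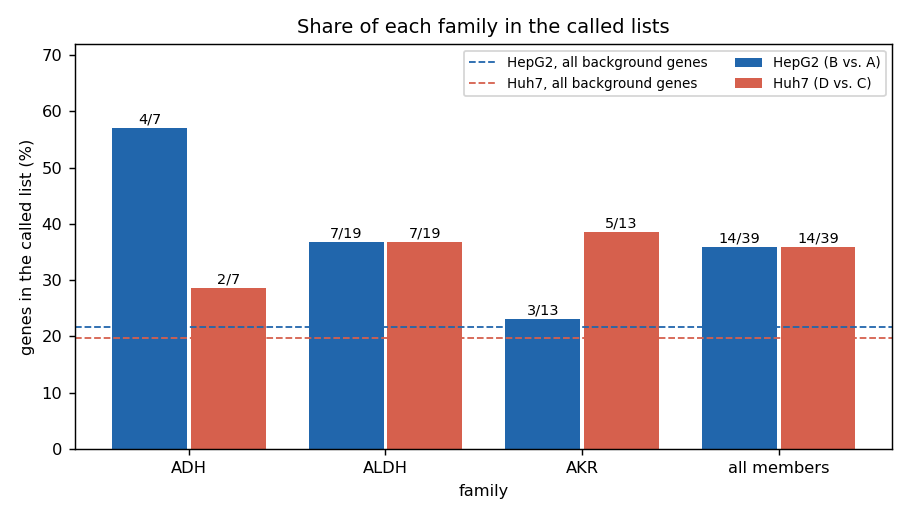
Bars give the percent of each family in the called list of HepG2 (blue) and Huh7 (red), with the number of called genes over family size above each bar. Dashed lines give the percent of all 22148 background genes called in each comparison (21.6% and 19.7%), and the ADH bars lie at 57.1% and 28.6%.

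The coding sequences of the 2 tightest groups of paralogs are shown first, because their similarity bears on how reads can be assigned and because ADH1A, ADH1B, AKR1C1 and AKR1C2 are 4 of the 12 members called in a single line. For the AKR1C genes the first 120 coding bases are given 5′ to 3′ from GENCODE 29, with capitals at the 27 positions where the 4 sequences are not all the same.
AKR1C1: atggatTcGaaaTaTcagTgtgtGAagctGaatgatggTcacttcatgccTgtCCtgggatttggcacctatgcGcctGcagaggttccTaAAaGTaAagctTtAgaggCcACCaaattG
AKR1C2: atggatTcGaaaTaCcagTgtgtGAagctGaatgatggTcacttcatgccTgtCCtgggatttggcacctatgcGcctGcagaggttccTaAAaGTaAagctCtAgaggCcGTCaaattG
AKR1C3: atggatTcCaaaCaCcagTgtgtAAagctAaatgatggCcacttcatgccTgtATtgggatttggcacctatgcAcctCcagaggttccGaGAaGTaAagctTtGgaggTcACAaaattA
AKR1C4: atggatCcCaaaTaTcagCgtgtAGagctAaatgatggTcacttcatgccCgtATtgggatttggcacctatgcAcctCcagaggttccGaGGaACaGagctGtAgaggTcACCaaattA

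For the class I alcohol dehydrogenases the same stretch is nearly invariant, and capitals mark the 6 of 120 positions that differ.
ADH1A: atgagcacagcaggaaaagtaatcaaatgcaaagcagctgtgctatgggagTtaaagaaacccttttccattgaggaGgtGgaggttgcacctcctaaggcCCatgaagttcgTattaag
ADH1B: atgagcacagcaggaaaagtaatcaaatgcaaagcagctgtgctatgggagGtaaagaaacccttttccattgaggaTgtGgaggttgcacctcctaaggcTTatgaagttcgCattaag
ADH1C: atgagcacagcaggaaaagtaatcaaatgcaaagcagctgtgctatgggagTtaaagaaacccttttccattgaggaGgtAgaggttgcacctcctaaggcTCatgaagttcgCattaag

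The class I alcohol dehydrogenases ADH1A, ADH1B and ADH1C, which carry most of the ethanol oxidation of the liver, were all called in HepG2 cells, whereas ADH1C was the 1 member of the class called in Huh7 cells. ADH4, a class II enzyme that oxidizes ethanol at high concentration and also retinol, was called in HepG2 cells and not in Huh7 cells. ADH6, a liver enzyme of less defined substrate, was called in Huh7 cells and not in HepG2 cells. ADH5, the glutathione-dependent formaldehyde dehydrogenase that most cells use, and ADH7, a stomach enzyme, were in neither list.

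The 7 ADH genes lie side by side on chromosome 4, all on the minus strand, with no other protein-coding gene between them. In the order of the chromosome they were ADH5 (neither list), ADH4 (HepG2), ADH6 (Huh7), ADH1A and ADH1B (HepG2), ADH1C (both) and ADH7 (neither). The called genes were thus the 5 inner genes of the cluster, and the uncalled ones its 2 ends. ADH6, called in Huh7 cells and not in HepG2 cells, stood between ADH4 and ADH1A, for which the reverse held.

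**Figure D3:**
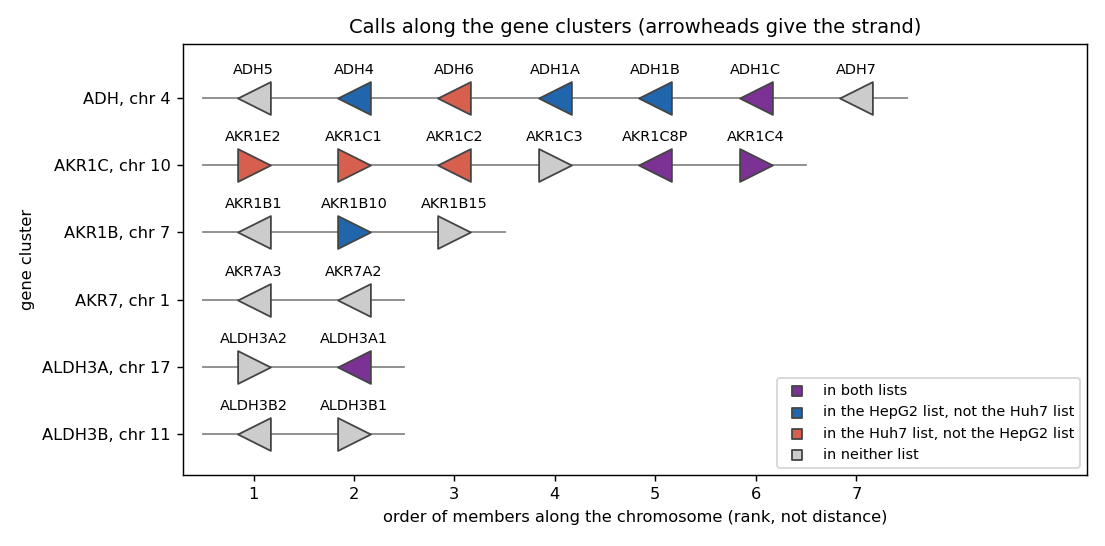
Each line is a gene cluster on the named chromosome, with members placed by rank and not by distance, and arrowheads pointing right for the plus strand and left for the minus strand. Colors give the list membership, and in the ADH cluster the 5 inner genes are in at least 1 list while both end genes are in neither.

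The 3 class I promoters were compared because these neighbors are called together in HepG2 cells. Over the 250 bases before the annotated start they were between 80.3% (ADH1B with ADH1C) and 81.4% (ADH1A with ADH1B) identical. The last 100 bases before the start are given 5′ to 3′ on the minus strand, from RefSeq on build GRCh38.p14, with capitals for runs of 10 or more bases that all 3 windows hold. ADH1A is at chr4:99290986-99291085, ADH1B at chr4:99321402-99321501 and ADH1C at chr4:99352747-99352846.
ADH1A: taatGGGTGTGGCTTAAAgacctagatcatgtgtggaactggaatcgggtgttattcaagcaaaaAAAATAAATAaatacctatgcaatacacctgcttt
ADH1B: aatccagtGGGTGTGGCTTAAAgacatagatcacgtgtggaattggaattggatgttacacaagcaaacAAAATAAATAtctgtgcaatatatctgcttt
ADH1C: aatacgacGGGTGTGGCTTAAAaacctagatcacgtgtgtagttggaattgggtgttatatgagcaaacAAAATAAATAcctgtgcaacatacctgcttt

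The run GGGTGTGGCTTAAA was held on either strand by 3 of 35116 promoter windows in the table, and these were the 3 class I windows. The run AAAATAAATA was held by 131 windows (0.373%), and among the members it too was found in ADH1A, ADH1B and ADH1C. Both runs were chosen by comparing these 3 windows, so their presence in them is no finding, and ADH1C, which was called in both lines, holds the same runs as ADH1A and ADH1B.

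A second sequence was searched in all promoter windows, TGACNNNGC on either strand. It is the core of the antioxidant response element, through which NRF2 acts on several aldo-keto reductase genes under oxidative stress. Of the 39 members 32 had a window of 300 bases (250 before and 50 after the start) in the table, with 42 windows in all. AKR1B10, AKR1B15, ALDH16A1, ALDH1L2, ALDH2, ALDH3A1 and ALDH3B2 had none. The letters were found in 2 of the 42 windows, both of AKR7A2, which was in neither list, beside 13.3% of all 35116 windows. These 2 windows overlap almost fully and are not separate, and by gene the letters were found in 1 of the 32 members with a window. No called member with a window held the letters, which says only that they are not in these 300 bases.

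Among the 19 ALDH genes, 5 were called in both cell lines, namely ALDH1B1, ALDH1L2, ALDH3A1, ALDH5A1 and ALDH8A1. ALDH1B1 is a mitochondrial enzyme that oxidizes acetaldehyde and other short aldehydes. ALDH1L2 is the mitochondrial enzyme that oxidizes a formyl folate to carbon dioxide with production of NADPH. ALDH3A1 oxidizes aromatic and medium-chain aldehydes, including those from lipid peroxidation. ALDH5A1 removes succinic semialdehyde in the breakdown of the transmitter GABA, and ALDH8A1 acts in the kynurenine branch of tryptophan breakdown.

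Another 4 ALDH genes were called in 1 line. ALDH1A3, which makes retinoic acid from retinaldehyde, and ALDH4A1, which completes proline breakdown in mitochondria, were called in HepG2 cells and not in Huh7 cells. ALDH1A1, the retinaldehyde oxidase typical of liver, and ALDH7A1, an enzyme of lysine breakdown, were called in Huh7 cells and not in HepG2 cells. Each line thus had 1 of the 3 ALDH1A genes in its list, and it was not the same gene.

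The 10 ALDH genes in neither list included ALDH2, the main mitochondrial acetaldehyde dehydrogenase, and ALDH1L1, the cytosolic counterpart of ALDH1L2. They also included ALDH1A2 (a retinoic acid maker), ALDH3A2 (fatty aldehydes), ALDH3B1 and ALDH3B2 (lipid aldehydes), ALDH6A1 (valine breakdown), ALDH9A1 (carnitine synthesis), ALDH18A1 (proline synthesis) and ALDH16A1. ALDH4A1 and ALDH18A1 act on opposite directions of the proline route, and ALDH4A1 alone of this pair was called, in HepG2 cells. On chromosome 17 the neighbors ALDH3A1 and ALDH3A2 were split between both lists and neither, with SLC47A2 between them, and ALDH3B1 and ALDH3B2 on chromosome 11 were both uncalled.

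The GO location terms overlap, and a gene can stand under several of them. Under the GO term mitochondrial matrix stood 4 called members in HepG2 cells (ALDH1B1, ALDH1L2, ALDH4A1 and ALDH5A1) and 4 in Huh7 cells (ALDH7A1 in the place of ALDH4A1). Of the 491 background genes of that term 15.7% were called in HepG2 cells and 14.7% in Huh7 cells, which is under the share of all background genes in each line. Under cytosol stood 9 called members in each line, 4 of them the same genes, while 20.4% of its 5462 background genes were called in HepG2 cells and 18.4% in Huh7 cells. Under nucleus stood 7 called members in HepG2 cells and 5 in Huh7 cells, while 21.1% and 18.3% of its 7950 background genes were called. Under extracellular region stood 6 and 8, while 22.7% and 22.8% of its 5050 background genes were called. ALDH3A1 was the 1 called member under endoplasmic reticulum.

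The AKR1C genes reduce ketosteroids, prostaglandins and xenobiotic carbonyls. AKR1C4, a liver enzyme that acts on steroids and bile acid precursors, was called in both lines, and so was its neighbor AKR1C8P, which GENCODE 29 gives as protein-coding although its symbol marks a pseudogene. AKR1C1, which inactivates progesterone, and AKR1C2, which inactivates dihydrotestosterone and binds bile acids, were called in Huh7 cells and not in HepG2 cells. AKR1C3, the prostaglandin and androgen enzyme of the group, was in neither list. The AKR1C group therefore had 2 of its 5 genes in the HepG2 list (40.0%), beside 21.6% of the background. It had 4 in the Huh7 list (80.0%), beside 19.7% of the background. The difference consisted of AKR1C1 and AKR1C2, whose coding sequences are 98.0% identical, and without members that have a near-identical paralog the AKR family had 3 called genes in each line.

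AKR1E2, a sugar reductase that lies next to AKR1C1 on chromosome 10, was also called in Huh7 cells and not in HepG2 cells. In the order of the chromosome the cluster read AKR1E2, AKR1C1 and AKR1C2 (Huh7), AKR1C3 (neither), then AKR1C8P and AKR1C4 (both). The 3 genes called in Huh7 cells and not in HepG2 cells were thus adjacent, and so were the 2 called in both. The cluster holds genes on both strands, and neither pattern followed the strand. Because AKR1C1 and AKR1C2 are 98.0% identical in coding sequence, their 2 calls may not be separate observations.

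AKR1B10, a reductase of retinaldehyde and lipid aldehydes that is raised in many liver tumors, was the 1 AKR gene called in HepG2 cells and not in Huh7 cells. Its neighbors on chromosome 7, AKR1B1 (aldose reductase) and AKR1B15, were in neither list. AKR1A1 (aldehyde reductase), AKR1D1 (the steroid reductase of bile acid synthesis), and AKR7A2 and AKR7A3 (aflatoxin aldehyde reductases) were also in neither.

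Several members are close in sequence, and how far their calls rest on shared reads was not measured. Over the whole coding sequence AKR1C1 and AKR1C2 were 98.0% identical, with 19 differing positions, and AKR1C3 was 91.4% identical to AKR1C1. ADH1A was 94.9% identical to ADH1B (57 positions), and ADH1B was 95.6% identical to ADH1C (49 positions). AKR1C4 was 88.5% identical to AKR1C1, and AKR1B10 was 85.9% identical to AKR1B15.

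**Figure D4:**
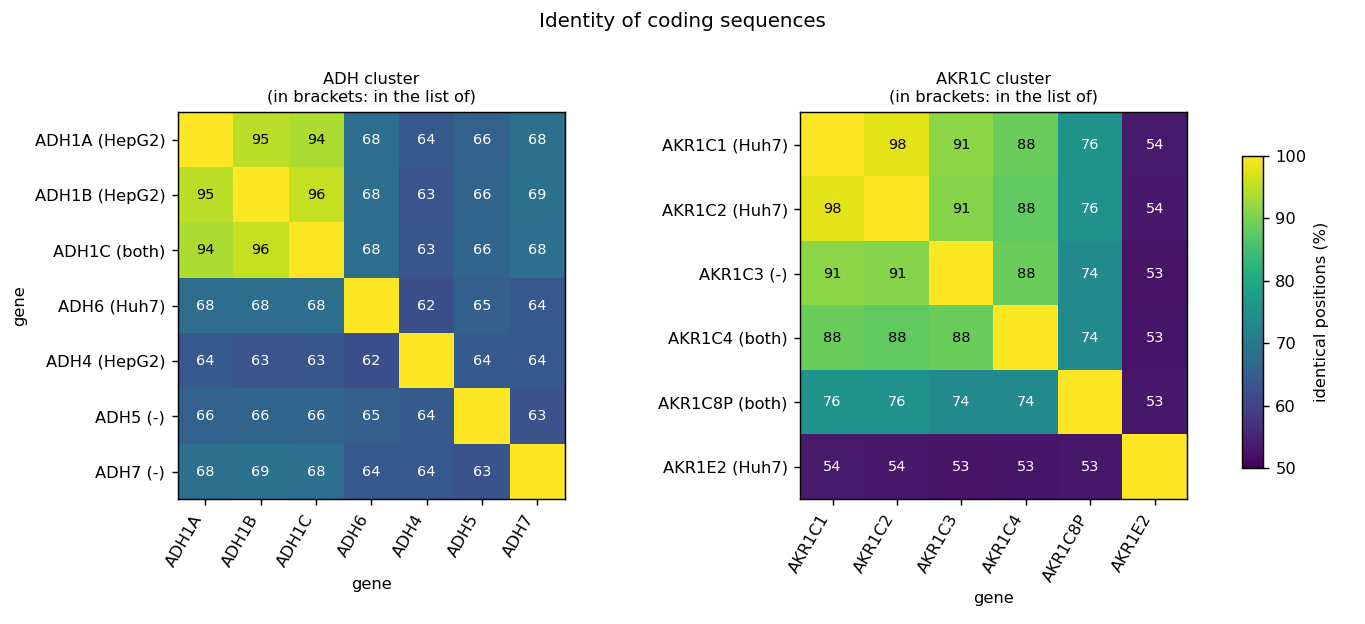
Cells give the percent of aligned coding positions that hold the same base for each pair of genes of the ADH cluster (left) and AKR1C cluster (right), on a color scale from 50% to 100%. Brackets name the lists that hold the gene (a dash for neither), and AKR1C1 with AKR1C2 is the closest pair at 98.0%.

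As a rough measure of what short reads can separate, the 75-base stretches of each member's transcript were compared with the transcripts of all other genes. The length of 75 bases was a choice made here and was not taken from the study's reads. Pairing of reads was not considered. In AKR1C2 58.7% of the stretches occurred in no other gene, and in AKR1C1 77.8%. The values were 89.2% for ADH1C, 94.5% for AKR1C4, 95.7% for ADH1A and 96.0% for ADH1B. AKR1C8P shared no 75-base stretch with another gene, and whether its calls rest on reads of other genes was not tested. In ALDH4A1 the value was 33.2%, because AL080251.1, another protein-coding entry on the same chromosome and strand, holds the remaining stretches. How the authors' counting treated shared reads is not given in the sources used here, and among the called members AKR1C1, AKR1C2 and ALDH4A1 had the smallest shares of unique stretches. Of the 8 members called in both lines 6 shared no stretch with another gene. The same held for 2 of the 6 members called in HepG2 cells and not in Huh7 cells. It also held for 3 of the 6 called in Huh7 cells and not in HepG2 cells, and for 10 of the 19 in neither list.

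The longest coding transcripts had a median of 2022.5 bases for the 8 members called in both lines, 1857 bases for the 6 HepG2 members, 2651.5 bases for the 6 Huh7 members and 2649 bases for the 19 uncalled members. Each group spanned a wide range, from 981 to 7547 bases among those called in both and from 1035 to 9569 bases among the uncalled. These lengths are a description and no test was made.

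Under the GO terms of alcohol oxidation the members made up most of the calls. Alcohol dehydrogenase activity, zinc-dependent, has 6 background genes, of which 4 were called in HepG2 cells and 2 in Huh7 cells, all of them ADH members. Ethanol oxidation has 12 background genes, with 6 called in HepG2 cells (5 of them members) and 5 in Huh7 cells (4 of them members). ALDH1B1 and ADH1C were the 2 members called there in both lines. HepG2 cells added ADH1A, ADH1B and ADH4, and Huh7 cells added ADH6 and ALDH1A1.

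Under the retinoid terms the lines differed in which members they held. Retinal dehydrogenase activity has 7 background genes, with 4 called in HepG2 cells (AKR1B10, AKR1C4, ALDH1A3 and ALDH8A1) and 3 in Huh7 cells (AKR1C4, ALDH1A1 and ALDH8A1). Retinol dehydrogenase activity, the step before it, has 18 background genes. There 9 were called in HepG2 cells, among them ADH1A, ADH1C and ADH4, and 5 in Huh7 cells, among them ADH1C.

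Aldehyde dehydrogenase (NAD) activity, a term named for what the ALDH family does, has 15 background genes, and 5 were called in each line, all members. ALDH1B1, ALDH1L2 and ALDH3A1 were the 3 in common, with ALDH1A3 and ALDH4A1 in HepG2 cells and ALDH1A1 and ALDH7A1 in Huh7 cells. The broader term for oxidoreductases that act on aldehyde or oxo groups with NAD or NADP has 36 background genes. In it 11 genes were called in HepG2 cells, 10 of them members, and 9 in Huh7 cells, 8 of them members.

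The steroid and anthracycline terms described next held more members in the Huh7 list. In each of them the members called in Huh7 cells and not in HepG2 cells were AKR1C1 and AKR1C2. The coding sequences of this pair are 98.0% identical, and how far their calls rest on shared reads was not measured. The terms thus repeat the same pair and are not separate observations. Ketosteroid monooxygenase activity has 6 background genes, of which 2 were called in HepG2 cells (AKR1C4 and AKR1C8P) and 4 in Huh7 cells (these with AKR1C1 and AKR1C2). Steroid dehydrogenase activity has 40 background genes, with 9 called in HepG2 cells and 11 in Huh7 cells, and the same 2 and 4 members among them. Bile acid binding has 9 background genes, of which 2 were called in HepG2 cells, no member among them, and 5 in Huh7 cells, AKR1C1 and AKR1C2 among them.

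Daunorubicin metabolic process and doxorubicin metabolic process cover the carbonyl reduction of these anthracyclines and have 8 background genes each. In each term AKR1B10 and AKR1C4 were the 2 genes called in HepG2 cells, and AKR1C1, AKR1C2 and AKR1C4 the 3 called in Huh7 cells. Quinone metabolic process has 33 background genes, with 8 called in each line and 3 members in each.

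In all, 586 GO terms held a called member. Of those whose name refers to alcohols, aldehydes, retinoids, steroids, prostaglandins, bile acids, quinones, anthracyclines or oxidoreductases, 49 held at least 2 called members in a line. The called members were more numerous in HepG2 cells in 19 of these terms, more numerous in Huh7 cells in 23 and equal in 7. The terms share genes with each other and do not count as separate observations.

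In the pathway tables, which follow the KEGG database of metabolic and signaling maps, 13 called members appeared in HepG2 cells and 12 in Huh7 cells. ALDH8A1 stood in no pathway in either line, nor did AKR1E2 in Huh7 cells. Called members entered 30 pathways, of which 21 held at least 2. A few genes carried many of them: ALDH7A1 stood in 14 pathways and ALDH1B1 in 13, and each called ADH gene stood in the same 8.

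Glycolysis / Gluconeogenesis, in which KEGG places the ethanol route, has 66 background genes. Of these 20 were called in HepG2 cells, 7 of them members, and 16 in Huh7 cells, 5 of them members. The members were 4 ADH and 3 ALDH genes (ALDH1A3, ALDH1B1 and ALDH3A1) in HepG2 cells and 2 ADH and 3 ALDH genes (ALDH1B1, ALDH3A1 and ALDH7A1) in Huh7 cells. Without the members 13 and 11 called genes remained. Fatty acid degradation has 44 background genes, with 9 called in HepG2 cells (5 members) and 10 in Huh7 cells (4 members). Tyrosine metabolism has 35 background genes, with 15 called in HepG2 cells (6 members) and 12 in Huh7 cells (3 members), and 9 called genes remained in each line without the members.

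The detoxification pathways had more called genes in Huh7 cells although they had more called members in HepG2 cells. Metabolism of xenobiotics by cytochrome P450 has 74 background genes, with 19 called in HepG2 cells (7 members) and 28 in Huh7 cells (6 members). Drug metabolism by cytochrome P450 has 68, with 21 called in HepG2 cells (6 members) and 25 in Huh7 cells (3 members). Chemical carcinogenesis has 80, with 23 called in HepG2 cells (6 members) and 30 in Huh7 cells (3 members). Retinol metabolism has 64, with 22 called in HepG2 cells (4 members, all ADH) and 24 in Huh7 cells (ADH1C, ADH6 and ALDH1A1 among them).

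Steroid hormone biosynthesis has 57 background genes, with 14 called in HepG2 cells (24.6%) and 25 in Huh7 cells (43.9%), and 2 and 4 members among them. Without these members 12 and 21 called genes remained. In Histidine metabolism and in beta-Alanine metabolism each line had 3 called members, and ALDH1B1 and ALDH3A1 were the 2 in common, with ALDH1A3 in HepG2 cells and ALDH7A1 in Huh7 cells. Ascorbate and aldarate metabolism has 27 background genes, of which 5 were called in HepG2 cells and 14 in Huh7 cells. The members there were ALDH1B1 in both lines and ALDH7A1 in Huh7 cells, so 12 of the 14 Huh7 genes were not members.

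**Figure D5:**
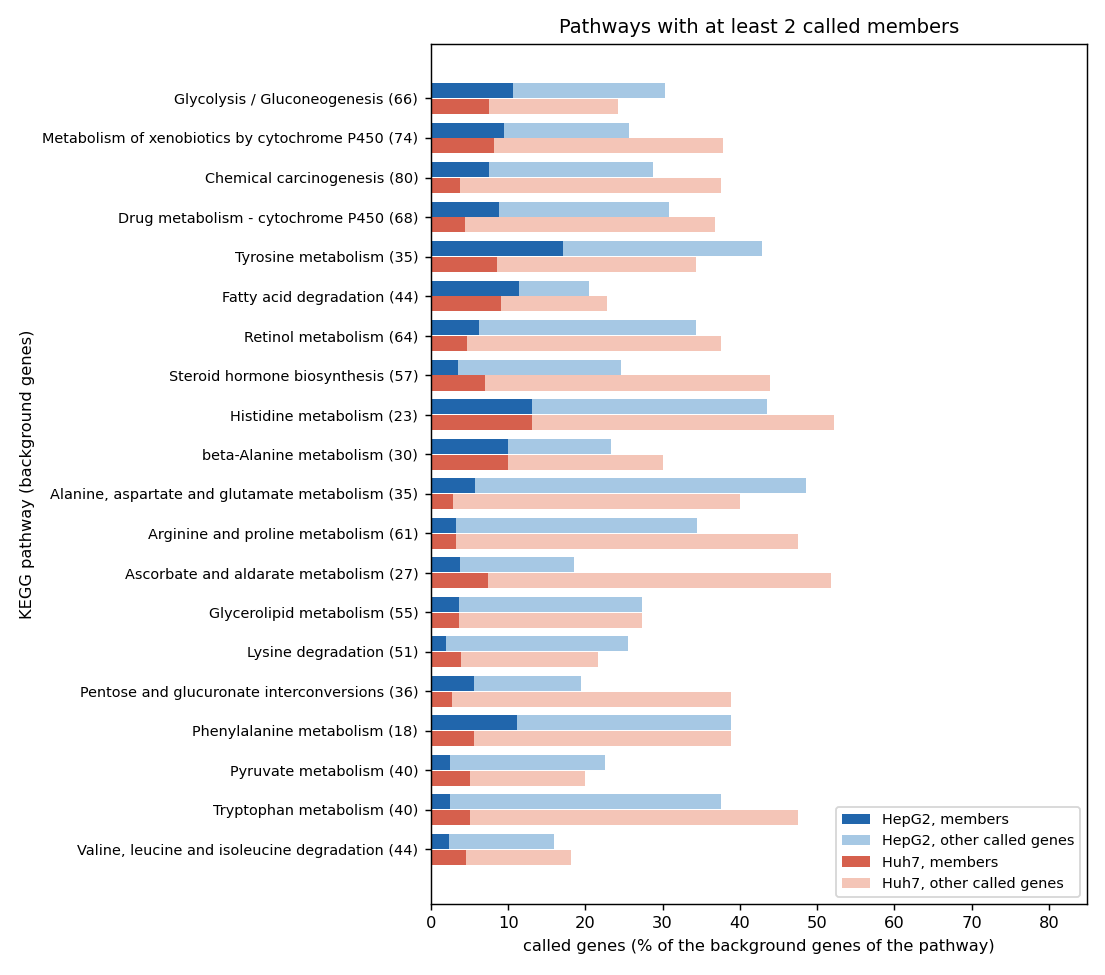
Bars give the called genes of each KEGG pathway as a percent of its background genes (number in brackets), for HepG2 (blue) and Huh7 (red), with the members in the dark part and other called genes in the light part. The 20 pathways with at least 2 called members are shown, without the general map of metabolic pathways, and in Steroid hormone biosynthesis the bars end at 24.6% and 43.9%.

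The links in the pathway tables show which NCBI gene each identifier was mapped to, and for AKR1C genes these were not always the same gene. AKR1C8P stood in 4 pathways in each line, among them Steroid hormone biosynthesis, Arachidonic acid metabolism and Ovarian steroidogenesis. In all 4 the linked gene was AKR1C3, which was itself in neither list. AKR1C2 stood in 2 pathways in Huh7 cells, and the links held AKR1C1 and not AKR1C2. The 25 called identifiers of Steroid hormone biosynthesis in Huh7 cells were thus linked to 24 NCBI genes, and the 28 of Metabolism of xenobiotics by cytochrome P450 to 27. By these links Steroid hormone biosynthesis held 3 members in Huh7 cells (AKR1C1, AKR1C3 and AKR1C4) and not the 4 counted above. The identifier of AKR1C3 itself stood in no pathway of either table.

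Other genes of the same routes were compared by 4 lists. Of 10 other genes of ethanol and alcohol oxidation, 4 were called in HepG2 cells (ACSS2, ADHFE1, SORD and XDH) and 4 in Huh7 cells (CYP2E1, ACSS1, SORD and XDH). CYP2E1 is the inducible ethanol-oxidizing cytochrome of the endoplasmic reticulum, and ACSS1 and ACSS2 activate acetate in mitochondria and cytosol. Of 21 other retinoid genes, 6 were called in HepG2 cells and 7 in Huh7 cells, and RDH5 and RDH12, which are retinol dehydrogenases, were the 2 in common. In HepG2 cells the others were RDH16, SDR16C5, RETSAT and STRA6, and in Huh7 cells they were RDH13, DHRS9, CRABP1, CRABP2 and CYP26A1, the last a retinoic acid hydroxylase.

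Of 12 other carbonyl and quinone reductases, DHRS2 was the 1 called in HepG2 cells, and CBR3, PTGR1 and TXNRD1 were the 3 called in Huh7 cells. Of 19 other steroid dehydrogenases and reductases, 6 were called in HepG2 cells (HSD3B7, HSD17B3, HSD17B6, HSD11B2, SRD5A2 and SRD5A3) and 4 in Huh7 cells (HSD3B7, HSD17B2, SRD5A2 and SRD5A3), with 3 in common. These lists are small, and none was tested against the background shares of 21.6% and 19.7%.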

How the data were processed

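Ribosomal RNA-depleted libraries of groups A, B, C and D (1 per group) were sequenced. Per the submitters' processing notes the tools were Bowtie2 2.2.8, HISAT2, StringTie 1.3.1 and Cuffdiff 2.1.1. The genome build, the annotation and the treatment of multiply mapped reads are not given in the sources used here. The paper's methods name Cuffdiff for the calls and its results name edgeR, at an adjusted p-value under 0.05. The authors deposited, per comparison, a table of GO terms (GOseq) and of KEGG pathways (KOBAS) with numbers of called and background genes, gene identifiers and enrichment p-values. The numbers are of genes, not reads. The p-value columns are the authors' own results and were not used. These tables hold no depth per library, so no interval was computed.

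The list of each comparison was the union of identifiers over all GO terms. Members were found by symbol in GENCODE 29 (GRCh38), and all 39 are accounted for. The members and gene lists were chosen with earlier results of these data known. All called members are named with their lists, uncalled members once, and GO terms and pathways from those with at least 2 called members. No significance test was made, because each group is 1 library. Coding sequences (longest complete coding transcript) were aligned globally with Biopython 1.88, gaps counted as differences. This replaced a planned comparison of proteins, for which no table was given. Parsers and sequence functions were checked on simulated data.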

Additional observations from a re-analysis of the deposited data

How the results depend on the processing

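The number of called members was recomputed under 6 alternatives, 1 of which (AKR1C8P left out) was chosen after seeing the data. The HepG2 number ranged from 11 to 14, the Huh7 number from 11 to 14 and the number in both from 7 to 8. All were within 1.5 times the values reported, but most of the alternatives could hardly move them. Keeping only process, function or component terms of GO reused the rows that defined a call. Every called member has terms of each type, so these numbers had to stay the same. The KEGG tables also rest on the authors' calls, and leaving out AKR1C8P can lower a number by 1 at most. The lowest numbers for each line came from leaving out the 6 members with a coding sequence at least 90% identical to another member, which lowered the ADH genes from 4 to 1 in HepG2 cells and from 2 to 1 in Huh7 cells, and the AKR genes in Huh7 cells from 5 to 3, so that each family then had the same number in both lines. The 7 in both lines also came from the KEGG tables and from leaving out AKR1C8P. The equal family numbers without near-identical members follow from the removal of ADH1A, ADH1B, AKR1C1 and AKR1C2, each called in 1 line. The background share became 23.9% in HepG2 cells and 21.9% in Huh7 cells when the protein-coding genes of GENCODE 29 replaced the GO background. No paired analysis was possible because each group holds 1 library and the results come from no test. The tables give no depth per library, and leaving out a replicate was not possible.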

Other observations

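Beside the terms named for alcohols, aldehydes and steroids, called members stood under amino acid terms. Cellular amino acid catabolic process has 149 background genes, of which 46 were called in HepG2 cells and 51 in Huh7 cells. The members among them were ALDH1L2 and ALDH5A1 in both lines, ALDH4A1 in HepG2 cells and ALDH7A1 in Huh7 cells. NAD binding has 61 background genes, with 15 called in HepG2 cells (ADH4, ALDH1A3 and ALDH1B1 among them) and 8 in Huh7 cells (ALDH1A1 and ALDH1B1 among them). Progesterone metabolic process has 16 background genes, with 6 called in HepG2 cells, AKR1C4 among them, and 7 in Huh7 cells, with AKR1C1, AKR1C2 and AKR1C4.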
